A study of Mus musculus with 6 samples.

Results

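Genomic imprinting is the expression of a gene mainly from the copy inherited from 1 parent. Imprinted genes lie in clusters in which protein-coding genes, long noncoding RNAs and small RNA genes share control regions, and many of them set fetal growth and hormone secretion. In the islet, IGF2 is a beta cell growth factor, and Meg3 is a long noncoding RNA studied for its role in insulin production. The values here describe 10 imprinted genes, of 53379 in the deposited tables, which were picked by name. They are the growth factor gene Igf2 and its neighbour H19, the IGF2 receptor gene Igf2r, the noncoding transcripts Meg3, Rian, Mirg and Peg13, the zinc finger gene Peg3, the cell cycle inhibitor gene Cdkn1c and the adaptor gene Grb10. The choice was made with results of the comparison below known, so the differences of these 10 genes are described and not tested.

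The study sequenced RNA recovered with an antibody against hnRNPK, a nuclear and cytoplasmic protein with KH domains that recognise single-stranded stretches rich in C, beside total RNA of the lysate. Min6 cells, an insulin-making line grown from a mouse insulinoma, gave 3 hnRNPK IP and 3 total RNA libraries. Cells of both groups were at passage 31 and had spent 30 h with palmitic acid at 500 µM and glucose at 25 mM, a condition called glucolipotoxicity. Each IP started from lysate with 200 µg of protein, and total RNA came from an input of 10%. A control antibody and untreated cells were not analysed here, so RNA held by beads or antibody alone is counted with RNA held by hnRNPK, and no effect of the treatment can be read. The labels do not tie replicate libraries to separate cultures, so p-values measure only the spread between libraries, which may be technical. The counts also do not tell the parental copies apart, nor fewer cells with a transcript from less of it per cell.

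Libraries held 38764925 to 52735957 counts. Levels are given in CPM, counts scaled to library size with TMM factors, and log2 fold changes as IP minus total RNA ± SE. Of 16929 genes that passed the filter on low counts, 28.9% were called enriched and 33.6% depleted in the IP (edgeR, adjusted p under 0.05). All beta cell markers examined were detected, with 1381 to 2411 CPM of Ins2 in IP and 7473 to 12809 in total RNA libraries. Of the 8 beta cell markers, 4 were enriched and 4 depleted. A list of 6 mesenchymal markers summed to 7.40 to 9.98 CPM in IP and 1.24 to 2.60 CPM in total RNA libraries. The 4 of them that passed the filter (Col1a1, Col1a2, Col3a1 and Thy1) were all enriched, with a median log2 fold change of 2.17, and Lum and Pdgfra were at most 0.148 CPM in any library. Markers of other islet cells (Gcg, Sst, Ppy and Ghrl) summed to 122 to 171 CPM in IP and 133 to 167 CPM in total RNA libraries, nearly all from Gcg, with 0 enriched and Ppy depleted. Their part in the levels below was not tested.

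Before the values, the stretches richest in C are shown for all 10 genes, since C-rich RNA is what hnRNPK is known to bind. Each is the first 25-base window with the most C in the longest transcript of GENCODE release M21 (GRCm38), searched on the sense strand within single exons, and capitals mark runs of 3 or more C.
Mirg: caCCCCtCCCCCaCCCaCCCaaCCC
Igf2: CCCCCggCCCCCCCttccggccgcc
Peg13: CCCtctCCCCtCCCaccaCCCagcc
Cdkn1c: CCCaCCCCaCCCgcgaCCCCggCCC
Meg3: CCCCgccagCCCgcctCCCCCtgtc
H19: CCCCagccgccacaacatCCCaCCC
Peg3: CCCCaCCCCCtcgaccatctcatgc
Igf2r: ctctcctctttctCCCtccagctcc
Grb10: catctcttccggccatCCCCaaCCC
Rian: CCCtttcctacctagtcctgacacc
The Mirg window, in a noncoding exon (chr12:109731518-109731542, plus strand), holds 19 C, the most of the 10, and 7.22% of the 16908 longest transcripts of tested genes had at least as many. For this share and those below, windows of all these transcripts were searched over the whole spliced sequence, exon junctions included. The Igf2 window lies in the 5′ UTR (chr7:142659428-142659452, minus strand) and holds 18 C, a number reached by 14.6% of them. The Peg13 window lies in its only exon (chr15:72805787-72805811, minus strand) and also holds 18 C, as does the Cdkn1c window in its coding sequence (chr7:143460233-143460257, minus strand). Meg3 has 17 C in a noncoding exon (chr12:109546365-109546389, plus strand), and Peg3 has 15 C in its coding sequence (chr7:6717807-6717831, minus strand). H19 has 16 C in a noncoding exon (chr7:142577358-142577382, minus strand). Igf2r has 14 C in its 5′ UTR (chr17:12769624-12769648, minus strand), and Grb10 has 14 C in its coding sequence (chr11:11967626-11967650, minus strand). The Rian window, in a noncoding exon (chr12:109647435-109647459, plus strand), has 12 C, and 93.9% of transcripts had a window with at least as many. Mirg and Cdkn1c, with as many C as Igf2 or more, were not called in the comparison given below, and both were of low level. Whether the number of C goes with the difference between IP and total RNA was not tested.

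Over whole transcripts, Igf2 and Rian lay at opposite ends in C content. The longest Igf2 transcript is 32.0% C and has 12.7 runs of 4 or more C per kb (CCCC and longer), a density matched by 0.875% of transcripts. That of Rian is 16.3% C with 1.24 runs per kb, and 99.2% of transcripts had at least its share of C. The medians over all were 24.2% C and 3.25 runs per kb. Meg3 had 22.9% C and 3.85 runs per kb, Peg3 22.2% and 4.37, and Peg13 25.6% and 4.23, all between the quartiles of 21.5% and 27.2% and of 1.93 and 5.06 runs. Mirg had 26.2% C and 5.49 runs per kb, and Cdkn1c 27.5% and 5.26, both above the upper quartile of runs. H19 had 24.7% C and 4.81 runs per kb, Igf2r 24.5% and 3.04, and Grb10 24.4% and 2.96. A run of C is a description of these letters and not a bound site.

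All 10 genes passed the filter on low counts. Levels divided into 6 well detected genes, Peg3, Igf2, Meg3, Igf2r, Rian and Peg13, and 4 genes of low level, Mirg, Grb10, Cdkn1c and H19. Igf2, Meg3, Peg3 and Peg13 were higher in every IP than in every total RNA library (4 of 10, beside 32.2% of all tested genes). Rian was lower in every IP library (1 of 10, beside 39.3%), and the groups overlapped for the other 5. The fit over all genes likewise called 4 enriched (background 28.9%) and 1 depleted (background 33.6%), so 5 of 10 in either direction (background 62.4%). The median log2 fold change was 0.69 for the 10 genes and −0.07 for all tested genes. Since the choice used this contrast, nothing is read from these shares. Summed, the 10 genes had 9043 to 12251 CPM in IP and 2368 to 2857 CPM in total RNA libraries, most of it from Peg3 and Igf2.

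**Figure D1:**
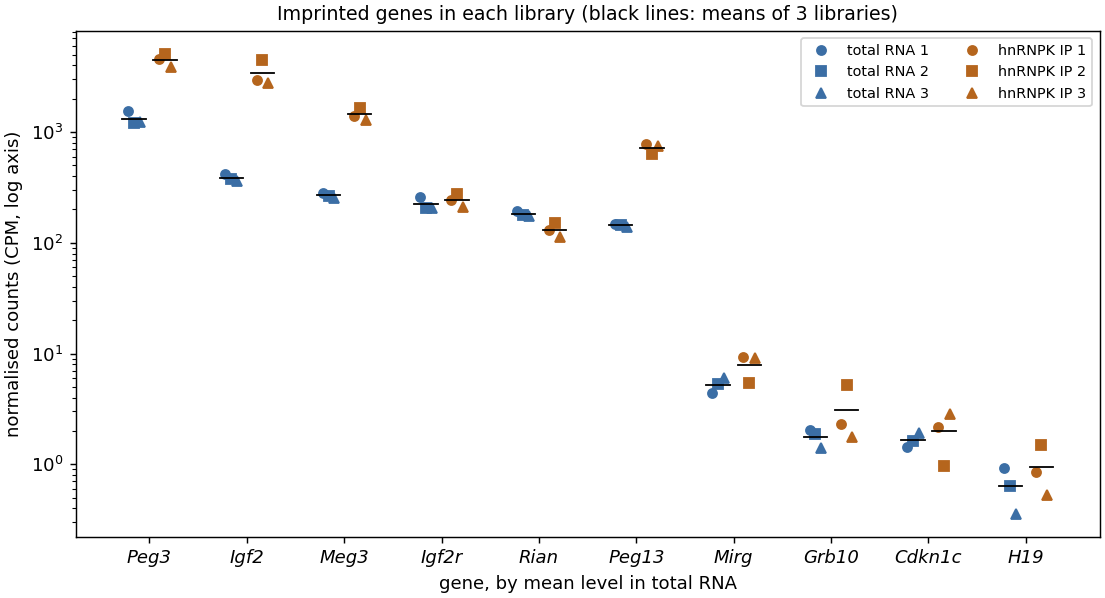
Normalised counts (CPM, log axis) of the 10 imprinted genes in each of the 6 libraries, ordered by mean level in total RNA, with black lines at group means. IP points of Peg3, Igf2, Meg3 and Peg13 sit above all their total RNA points, those of Rian sit below, and those of the other 5 genes mix with the total RNA points.

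Igf2 encodes insulin-like growth factor 2, a fetal growth factor expressed from the paternal copy (ENSMUSG00000048583.16, chromosome 7, 142650766 to 142666816, minus strand). It had 2982, 4472 and 2776 CPM in IP libraries 1, 2 and 3, and 414, 376 and 364 CPM in total RNA libraries 1, 2 and 3. The groups were far apart, and IP library 2 stood above the other two. Mean levels were 3410.1 ± 926 CPM over the IP libraries against 385 ± 26.2 CPM over the others (SD, n = 3 each), a ratio of 8.86. The log2 fold change of 3.15 ± 0.19 was 2.90 without IP replicate 2. The spread among IP libraries (CV 27.1%) was wider than among total RNA libraries (6.82%). Read numbers were high throughout, with 19331 reads or more in each library.

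The place of Igf2 in the annotation bears on its count. In GENCODE M21, a gap of 11.8 kb separates the annotated Igf2 and Ins2 genes, which share 0 exonic bases. Reads of the insulin mRNA and of Igf2 thus fall on separate exons. A second protein-coding model, Gm49394, shares 3596 bases, or 62.8%, of the Igf2 exons on the same strand, and it is listed at 0 reads in all 6 libraries. How the authors' counting treated reads that fit both genes remains not given in the sources used here. The antisense transcript Igf2os shares 98 exonic bases with Igf2. Igf2os was enriched, with 262 ± 23.9 CPM over the IP against 84.2 ± 2.50 CPM over total RNA libraries (SD, n = 3 each; log2 fold change 1.64 ± 0.10, edgeR adjusted p = 4.65e-06). Without a stated strand setting, reads of Igf2os and of Igf2 cannot be told apart where they overlap. Ins2, in contrast, was depleted, with 1952 ± 524 CPM over the IP against 10465 ± 2726 CPM over total RNA libraries (SD, n = 3 each; log2 fold change −2.42 ± 0.25, edgeR adjusted p = 7.99e-05).

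An intron of Igf2 carries the hairpin gene Mir483, which has a row of its own and had 64, 42 and 21 reads in the IP libraries against 12, 11 and 12 in total RNA. The 2 mature products are given from RefSeq (GRCm38.p6) to show which small RNA the row stands for, with the seed (bases 2 to 8) in capitals.
mmu-miR-483-5p: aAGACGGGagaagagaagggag
mmu-miR-483-3p: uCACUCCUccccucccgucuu
Reads of these libraries over a hairpin come from longer RNA as well and do not measure the mature miRNA. Every IP library had more Mir483 reads than any total RNA library.

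H19 is a maternally expressed noncoding RNA that lies 72.6 kb from Igf2 and shares enhancers with it (ENSMUSG00000000031.16, chromosome 7, 142575529 to 142578143). It was close to the limit of detection, with 29, 49 and 21 reads in IP and 58, 34 and 19 reads in total RNA libraries. These are 0.856, 1.49 and 0.524 CPM and 0.931, 0.630 and 0.358 CPM, and the groups overlap. The log2 fold change was 0.57 ± 0.65, and leaving out single libraries moved it between 0.09 and 0.98. Its hairpin gene Mir675 had 0 reads. In these cells total RNA thus held 385 CPM of Igf2 and 0.640 ± 0.287 CPM of H19 (mean, SD of 3).

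Igf2r encodes the cation-independent mannose 6-phosphate receptor, which carries lysosomal enzymes and removes IGF2 from the cell surface (ENSMUSG00000023830.13, chromosome 17, 12682406 to 12769664, minus strand). It had 246, 274 and 212 CPM in the IP and 259, 208 and 205 CPM in total RNA. The groups overlap and their means, 244 ± 30.8 and 224 ± 30.3 CPM (SD, n = 3 each), differed by less than the spread. The log2 fold change of 0.12 ± 0.13 turned to −0.32 with library totals in place of TMM factors. With an offset for exonic length it was −0.41 and called depleted, and tested genes as long as Igf2r had a trend value of 0.46. Its antisense noncoding RNA Airn, which silences the paternal Igf2r copy in many tissues, had 3.49 ± 0.472 against 2.06 ± 0.269 CPM (SD, n = 3 each). Airn was enriched at 0.76 ± 0.29 (edgeR adjusted p = 0.0474), and this call held without IP replicate 1 but was lost on leaving out any other single library (0.68 to 0.86). It was also lost with library totals alone (0.33) and with no filter on low counts (0.73). The exons of Airn and Igf2r share 0 bases. Slc22a2, an organic cation transporter gene beyond Igf2r, had 0 to 14 reads in IP libraries and a value of −0.88 ± 1.11 that was not called.

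The Dlk1-Dio3 domain on chromosome 12 holds Meg3, Rian and Mirg, 3 maternally expressed noncoding RNAs on the plus strand that carry the snoRNA and miRNA genes of the domain. They are widely regarded as parts of 1 long transcription unit. In the IP the 3 differed: Meg3 was higher, Rian lower, and Mirg overlapped.

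Meg3 (ENSMUSG00000021268.17, 109541001 to 109571726) had 1387, 1659 and 1286 CPM in the IP and 282, 266 and 255 CPM in total RNA. Every IP library was more than 4-fold above every total RNA library. The means were 1444 ± 193 and 268 ± 13.6 CPM (SD, n = 3 each), a ratio of 5.39, with a log2 fold change of 2.43 ± 0.11. The offset for exonic length took it to 1.57 and library totals to 2.00, both still called. Rian, host of a large family of box C/D snoRNAs (ENSMUSG00000097451.10, 109603940 to 109661716), starts 32.2 kb after Meg3 ends. Rian had 131, 150 and 112 CPM in the IP and 194, 179 and 173 CPM in total RNA. All 3 IP libraries were lower, with means of 131 ± 18.7 and 182 ± 10.9 CPM (SD, n = 3 each) and a log2 fold change of −0.48 ± 0.12. It stayed negative under the alternatives tried, from −1.34 with the offset for exonic length to −0.39 without total RNA replicate 1. The exons of Meg3 and Rian have nearly the same total length, 18089 and 18234 bases.

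Mirg, a host of miRNAs (ENSMUSG00000097391.8, 109729764 to 109749460), had 9.33, 5.37 and 9.05 CPM in the IP and 4.40, 5.34 and 6.0 CPM in total RNA. IP libraries 1 and 3 lay above total RNA and IP library 2 among it, and the log2 fold change was 0.59 ± 0.27. Without IP replicate 2 it was 0.81 and was then called enriched. Begain, Dlk1 and Rtl1, the protein-coding genes of the domain that were tested, were enriched (background 28.9%). Rtl1, a retrotransposon-derived gene of placental vessels on the opposite strand between Meg3 and Rian, had 15.2 ± 7.60 against 2.39 ± 0.531 CPM (SD, n = 3 each; 2.67 ± 0.39, edgeR adjusted p = 0.000483). With no strand setting given, plus-strand RNA running from Meg3 to Rian could also be counted as Rtl1. Begain was at 2.04 ± 0.24 (edgeR adjusted p = 0.00016). Dlk1, a transmembrane protein of the Notch ligand family, had 26.9 ± 1.54 against 15.1 ± 1.24 CPM (0.84 ± 0.13, edgeR adjusted p = 0.000675). Dio3, a thyroid hormone deiodinase gene, had 6 reads in all, all in total RNA library 1, and was not tested.

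**Figure D2:**
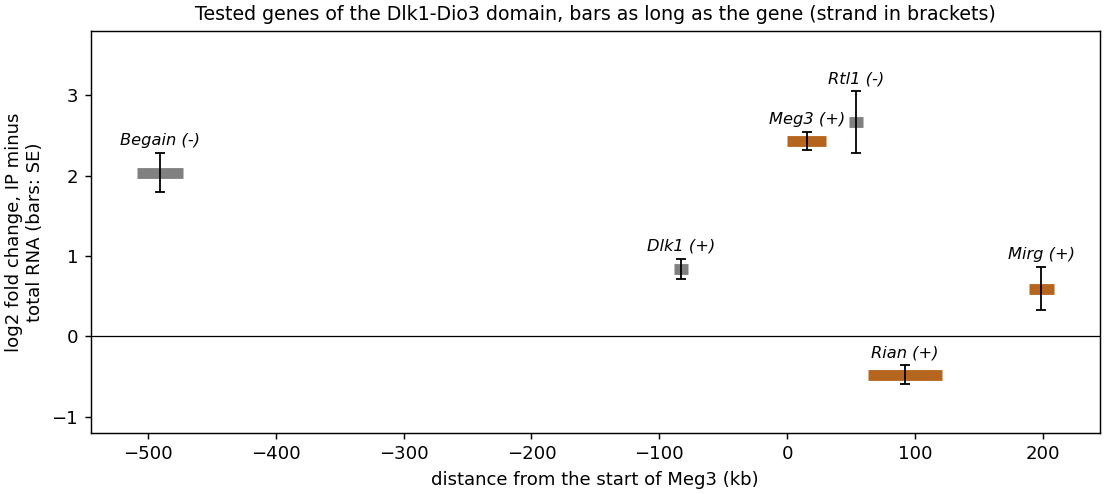
Log2 fold change (IP minus total RNA, vertical bars SE) of the 6 tested genes of the Dlk1-Dio3 domain against distance from the start of Meg3 (kb), each drawn as long as the gene with its strand in brackets. Rian at −0.48 lies below 0 while Meg3 at 2.43 and Rtl1 at 2.67, its neighbours on the left, lie above 2.

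Annotated small RNA genes within these hosts on the same strand had few reads. Of 18 such rows within Rian, 10 had any read, 208 over the IP and 58 over the total RNA libraries. Of the IP reads, 101 belonged to Mir1188, which had 0, 91 and 10 in IP libraries 1, 2 and 3. The snoRNA rows Gm24564 and Gm23600 had 0, 34 and 2 and 0, 23 and 8 reads there. The larger IP sum within Rian thus rests mostly on IP library 2. IP library 1 had reads only in Mir370 (8) and DQ267102 (2). Within Mirg, 4 of 14 rows had reads, and Mir3072 held 203 of 209 IP reads and 82 of 84 total RNA reads. Mir3072 had 78, 49 and 76 reads in IP and 24, 34 and 24 in total RNA libraries, so every IP library had more, whereas Mirg itself overlapped. The hairpin of Mir3072 lies partly in a Mirg exon, and its mature forms are given from RefSeq (GRCm38.p6) with seeds in capitals.
mmu-miR-3072-5p: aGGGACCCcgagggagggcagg
mmu-miR-3072-3p: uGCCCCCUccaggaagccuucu
Within Meg3, 4 rows held 1 read in all.

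Peg3 encodes a zinc finger protein that is paternally expressed (ENSMUSG00000002265.16, chromosome 7, 6703892 to 6730431, minus strand). It had the highest level of the 10 in both groups before length was counted, with 4530.3, 5046 and 3895 CPM in the IP and 1549.6, 1196 and 1221 CPM in total RNA. The lowest IP library was well above the highest total RNA library. Means were 4490.3 ± 576 and 1322 ± 197 CPM (SD, n = 3 each), a ratio of 3.40, and the log2 fold change was 1.76 ± 0.14. Library totals took it to 1.33 and the offset for exonic length to 1.03. Usp29, a ubiquitin protease gene that starts 146 bases away on the other strand, was enriched with 52.9 ± 23.4 against 17.5 ± 0.953 CPM (SD, n = 3 each; 1.59 ± 0.28, edgeR adjusted p = 0.00137). Zim1, next to Peg3 and maternally expressed, was enriched at 0.46 ± 0.10 (edgeR adjusted p = 0.00461). The Zim1 call ended with library totals (0.03) and with the offset for exonic length (0.02). Zim2, Zim3 and Zfp264 had 0 reads.

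Peg13 is a paternally expressed noncoding RNA of 1 exon inside an intron of Trappc9 (ENSMUSG00000106847.1, chromosome 15, 72805600 to 72810324, minus strand). It had 776, 638 and 747 CPM in the IP and 149, 144 and 140 CPM in total RNA, without overlap. The means, 720 ± 72.8 and 144 ± 4.45 CPM (SD, n = 3 each), gave 5.00-fold and a log2 fold change of 2.32 ± 0.10. Trappc9, a trafficking complex subunit annotated on the same strand, had 82.9 ± 2.56 and 74.0 ± 3.31 CPM (0.17 ± 0.09, edgeR adjusted p = 0.129). Its value was −0.27, called depleted, with library totals and with the offset for exonic length. Peg13 and Trappc9 share 0 exonic bases, but unspliced Trappc9 RNA would also cover Peg13. In the same cluster the potassium channel gene Kcnk9 was enriched (1.66 ± 0.16, edgeR adjusted p = 5.11e-05). So was Ago2, the slicer of RNA interference, with 1363 ± 356 against 209 ± 36.4 CPM (SD, n = 3 each; 2.71 ± 0.21, edgeR adjusted p = 1.62e-05). The chromatin factor gene Chrac1, on the opposite strand with an annotated span that overlaps Ago2, was depleted (−2.36 ± 0.17, edgeR adjusted p = 1.31e-05). Exonic bases shared by Chrac1 and Ago2 were not counted. As no strand setting was given, their reads cannot be told apart in any shared stretch.

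Cdkn1c encodes p57, an inhibitor of cyclin-dependent kinases that restrains beta cell division, and is expressed from the maternal copy (ENSMUSG00000037664.13, chromosome 7, 143458339 to 143461050, minus strand). It had 73, 32 and 113 reads in IP and 89, 87 and 101 reads in total RNA libraries, or 2.15, 0.970 and 2.82 against 1.43, 1.61 and 1.90 CPM. IP libraries were both above and below total RNA, and the log2 fold change of 0.27 ± 0.46 was −0.12 without IP replicate 3 and −0.16 with library totals. An antisense model, Gm44732, shares 30.7% of its exonic bases and is listed at 0 reads. Kcnq1ot1, the long noncoding RNA that silences this cluster on the paternal copy, was enriched with 9.28 ± 0.630 against 2.76 ± 0.350 CPM (SD, n = 3 each; 1.75 ± 0.21, edgeR adjusted p = 0.000163). With the offset for exonic length (93092 bases) the value was 0.44 and not called. Coding neighbours lay lower. Tssc4 (−2.11 ± 0.16), the tetraspanin Cd81 (−1.51 ± 0.14) and the histone chaperone Nap1l4 (−0.91 ± 0.12) were depleted (edgeR adjusted p = 1.49e-05, 3.46e-05 and 0.000252). Osbpl5 at −0.16 ± 0.21 and Ascl2 at −2.73 ± 1.35 did not pass. All 16 IP reads of Ascl2 lay in IP library 3, and it was called depleted at −8.47 without that library and at −4.34 by limma-voom.

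Grb10 encodes an adaptor that binds and dampens the insulin and IGF1 receptors (ENSMUSG00000020176.17, chromosome 11, 11930508 to 12038683, minus strand). It had 79, 171 and 71 reads in IP and 128, 101 and 75 reads in total RNA libraries. In CPM these were 2.33, 5.18 and 1.77 against 2.05, 1.87 and 1.41, so that IP libraries 1 and 2 lay above every total RNA library and IP library 3 among them. The log2 fold change of 0.79 ± 0.46 fell to 0.20 without IP replicate 2. Ddc, the neighbouring gene for aromatic amino acid decarboxylase, was depleted with 145 ± 20.9 against 571 ± 3.8 CPM (SD, n = 3 each; −1.98 ± 0.11, edgeR adjusted p = 4.52e-06). Cobl had at most 8 reads in a library and was not tested.

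**Figure D3:**
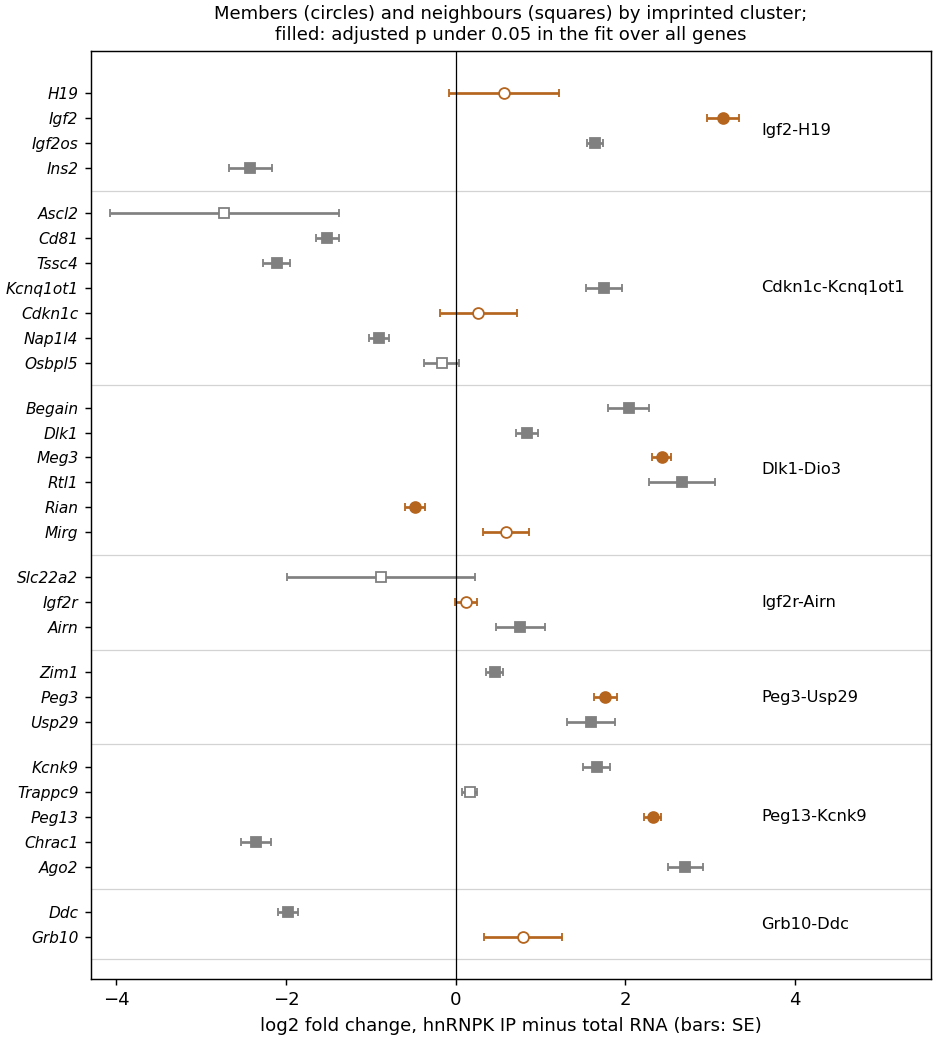
Log2 fold change (IP minus total RNA, bars SE) of the 10 members (circles) and their 20 tested neighbours (squares), grouped by imprinted cluster; filled symbols were called by edgeR at an adjusted p under 0.05. Within most clusters filled symbols lie on both sides of 0, as with Igf2 at 3.15 and Ins2 at −2.42.

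Per kb of exon, the order of levels differed between the groups. In total RNA Peg3 was highest at 99.2 ± 14.8 CPM per kb, followed by Igf2 at 67.2 ± 4.58, Peg13 at 30.5 ± 0.943, Igf2r at 24.1 ± 3.26, Meg3 at 14.8 ± 0.754 and Rian at 9.99 ± 0.599 (SD, n = 3 each). Each of these was above the next in every total RNA library. Cdkn1c (0.808 ± 0.117) and Mirg (0.720 ± 0.111) were not separated from each other, nor were H19 (0.260 ± 0.117) and Grb10 (0.196 ± 0.0365). In the IP, Igf2 led at 596 ± 162 CPM per kb and exceeded Peg3, at 337 ± 43.3, in every library. Meg3, at 79.8 ± 10.6, was above Igf2r, at 26.2 ± 3.31, in every IP library. These levels rest on the union of annotated exons, which is longer than any 1 transcript of the gene except for Peg13, where the lengths are equal.

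The members followed opposed orders over the IP libraries. IP library 2 had the highest level of 7 members (Igf2, H19, Igf2r, Meg3, Rian, Peg3 and Grb10), and IP library 3 had the lowest level of these 7. IP library 2 had the lowest level of the other 3, Peg13, Mirg and Cdkn1c. Over all tested genes, IP library 2 minus the mean of IP libraries 1 and 3 had a median of −0.31 on the log2 scale for genes under 2 kb of exon and 0.26 for genes of 10 kb or more. The members did not all follow their length, since H19, of 2460 bases, was highest in IP library 2 and Mirg, of 7292 bases, lowest. H19, Grb10, Mirg and Cdkn1c also rest on few reads. Exon length also went with the difference between IP and total RNA. Genes of 10 kb or more had a median log2 fold change of 0.68, with 54.8% enriched and 15.6% depleted, and genes under 2 kb a median of −0.86, with 12.7% enriched and 40.9% depleted. Meg3 (2.43) and Peg3 (1.76) lay above the trend for their length (0.79 and 0.66), and Rian (−0.48) lay below it (0.79). Igf2 and Peg13, of 5723 and 4725 bases, lay furthest above, by 2.99 and 2.29. Among other genes named here, the offset for exonic length moved Ins2 to −1.66, Tssc4 to −1.52, Usp29 to 0.73, Kcnk9 to 0.97 and Ago2 to 1.95. It moved Mcts2 to −1.98, Nnat to 2.24, Rasgrf1 to 1.63 and Igfbp7 to −0.84, and these 9 genes were still called. The part of length in these values was not tested further.

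**Figure D4:**
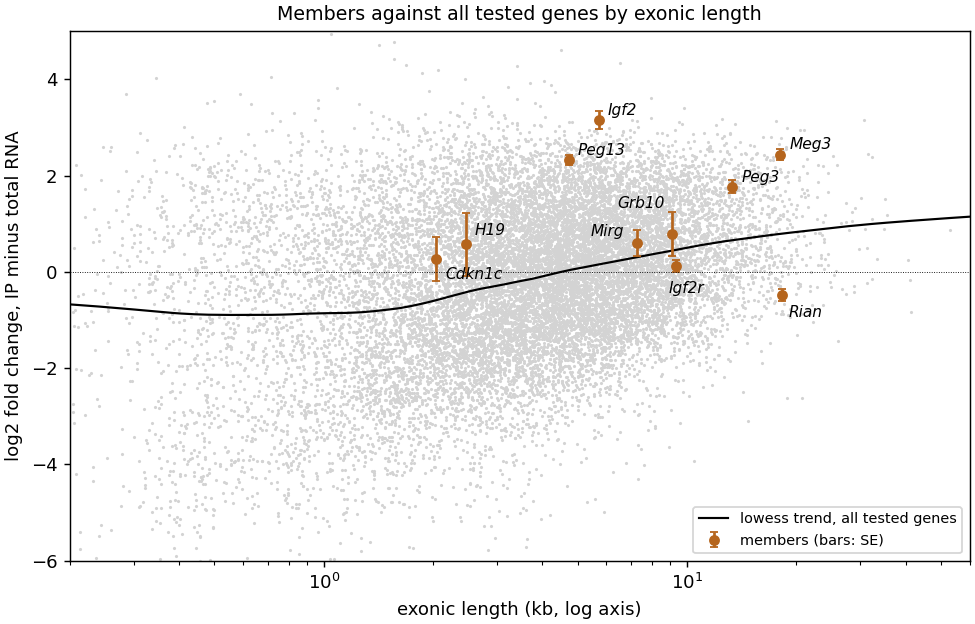
Log2 fold change (IP minus total RNA) against exonic length (kb, log axis) for tested genes with an annotated length (grey; a few lie outside the axes), their lowess trend (line) and the 10 members (bars SE). Igf2 and Peg13 lie 2.99 and 2.29 above the trend, and Rian is the member furthest below it.

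The neighbours as a list went both ways. Of 29 genes named by position, 20 passed the filter, 10 were enriched (background 28.9%) and 6 depleted (background 33.6%). Their median log2 fold change was 0.31, which library totals took to −0.12, the offset for exonic length to −0.13 and no filter on low counts to −0.07. Imprinted genes of other clusters also divided, with 11 enriched, 10 depleted and 6 neither among 27 tested of 34, and a median of 0.34 that was −0.10 with library totals and −0.11 without IP replicate 1. Plagl1, a zinc finger regulator of other imprinted genes, was highest with 392 ± 18.1 against 76.2 ± 3.01 CPM (SD, n = 3 each; 2.36 ± 0.08, edgeR adjusted p = 1.26e-06). Rasgrf1, an exchange factor for Ras (2.26 ± 0.08), and Nnat, which encodes the small membrane protein neuronatin (1.64 ± 0.16), followed (edgeR adjusted p = 1.24e-06 and 5.33e-05). Mcts2 (−2.77 ± 0.50), Commd1 (−2.41 ± 0.25) and the growth suppressor necdin, Ndn (−1.89 ± 0.16), were lowest (edgeR adjusted p = 0.0016, 8.1e-05 and 2.45e-05). Mcts2 had 14, 24 and 70 reads in the IP libraries, and its value was −3.60 without IP replicate 3.

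Genes that act with IGF2 outside its cluster were also measured. Of 13 genes for IGF1, receptors, IGF binding proteins and IGF2 mRNA-binding proteins, 7 were tested, 6 enriched (background 28.9%) and 1 depleted (background 33.6%). The enriched count was 3 without total RNA replicate 2, without total RNA replicate 3 and with a replicate block. The insulin receptor gene Insr had 93.3 ± 12.8 against 52.0 ± 7.34 CPM (SD, n = 3 each; 0.84 ± 0.14, edgeR adjusted p = 0.00121), a call that the offset for exonic length ended at 0.10. Igfbp4 was enriched at 1.195 ± 0.180 (edgeR adjusted p = 0.000589), and Igfbp7 was depleted at −1.62 ± 0.26 (edgeR adjusted p = 0.000802). Igf2bp2, Igf2bp3 and Igfbp5, whose group means were at most 1.42 CPM, had values of 1.98 ± 0.64, 2.50 ± 0.74 and 2.31 ± 0.68. Their calls (edgeR adjusted p = 0.0277, 0.0183 and 0.0186) were lost without total RNA replicate 2 or 3, and Igf2bp2 fell to 1.27 and was not called without IP replicate 2. Igf1r, named outside the rule for examples, was enriched at 1.86 ± 0.16.

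The genes most like Igf2 over the 6 libraries, by the root mean square difference of centred log2 CPM among 10370 genes of at least 5 CPM, were Tead1 (0.10), Raph1 (0.13), Hivep3 (0.13) and Zbtb20 (0.14). They had log2 fold changes of 2.95 to 3.16. The genes most like Meg3 were Kdm2a (0.04), Mlxip (0.05), Slc35f1 (0.05) and Kcnj6 (0.06), with log2 fold changes of 2.45 to 2.48. With 3 libraries in each group, the difference between the groups makes up most of such a profile.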

How the data were processed

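RNA of 6 libraries was measured as whole-number counts of reads per gene, deposited without normalization, 1 table per library. Per the submitters' processing notes, the authors used TopHat2, featureCounts and mm10. Annotation release, strand setting, tool versions and treatment of shared reads were not given in the sources used here. GENCODE M21 (GRCm38) supplied symbols for 53274 of 53379 identifiers, including all 10 members, and RefSeq the mature miRNAs.

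Groups came from the sample titles. The test was edgeR 4.0.16 in R 4.3.3 (TMM factors, filterByExpr with minimum count 10 and minimum total 15, glmQLFit and glmQLFTest on the group alone), with Benjamini-Hochberg adjustment over 16929 genes and a threshold of 0.05. Tables and trends were made in Python 3.11.15. The script was tested on simulated data with 200 changed genes. Libraries within a group differed beyond sampling noise (chi-square per degree of freedom 6.40 to 123). Alternatives were DESeq2 1.42.0, limma 3.58.1 (voom), other scalings, no low-count filter, halved counts, an offset for exonic length (lowess, span 0.3), a replicate block and leaving out each library.

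The members and lists were chosen with earlier results of these data known. Named were all members, tested neighbours, up to 3 highest and 3 lowest called genes of the other lists, and the 4 genes most like Igf2 or Meg3.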

Additional observations from a re-analysis of the deposited data

How the results depend on the processing

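Without a spike-in, levels in the IP are relative. Scaling by library totals moved the median of all tested genes by −0.43 and the enriched share of calls from 46.3% to 32.1% (3447 enriched, 7278 depleted). Igf2, Meg3, Peg3, Peg13 and Rian kept direction and call in the 14 alternatives run, and H19, Cdkn1c and Grb10 were called in none. The count of depleted members became 2 with the offset for exonic length, through Igf2r. Leave-one-out fits gave 4 to 5 enriched members, 9 to 10 enriched and 6 to 7 depleted neighbours, 11 to 13 enriched and 9 to 10 depleted other imprinted genes, and 3 to 6 enriched IGF system genes, where fewer libraries enter. Over all genes they gave 4242 to 5181 enriched and 4714 to 6201 depleted. The median of the neighbours turned to −0.12 with library totals, −0.070 with no filter and −0.13 with the offset for exonic length, and that of other imprinted genes to −0.10 with library totals. Leaving out 1 library moved the latter between −0.11 (without IP replicate 1) and 0.38. Trappc9 turned to −0.27 with library totals and to −0.27 with the offset. The causes were not tested. Even counts made up 58.6% to 68.7% of counts of 1 to 20, as would be seen if both mates were counted, and halved counts changed no call among the members.

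Samples of the 2 groups share replicate numbers, but the labels do not say whether same-numbered libraries are pairs. Deviations of same-numbered libraries had correlations of 0.0009, −0.07 and 0.12. No IP library correlated best with the total RNA library of its own number, and of the total RNA libraries only library 3 correlated best with its own. Resting on 3 libraries in each group, these correlations cannot show whether same-numbered libraries came from the same lysate. A replicate block gave 4384 enriched and 5364 depleted genes, and 3 enriched IGF system genes in place of 6, and it changed no call among the 10 members. Depth limits H19, Cdkn1c and Grb10, which had 19 to 171 reads in a library.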

Other observations

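The cluster of Snrpn on chromosome 7, the counterpart of the Prader-Willi region, holds another long snoRNA host transcript, Snhg14, and its genes were looked at after their values were seen. Snhg14 was depleted, with 5.49 ± 0.385 CPM over the IP against 14.97 ± 0.843 CPM over total RNA libraries (SD, n = 3 each; log2 fold change −1.45 ± 0.16, edgeR adjusted p = 0.000114). It spans 26093 bases of annotated exon. Rian, the snoRNA host of the Dlk1-Dio3 domain, had −0.48 ± 0.12. Ube3a, a ubiquitin ligase gene on the opposite strand of the same cluster, was enriched at 1.57 ± 0.22 (edgeR adjusted p = 0.000432). The annotated spans of Ube3a and Snhg14 overlap, their shared exonic bases were not counted, and no strand setting was given. Snrpn itself was depleted at −0.78 ± 0.17 (edgeR adjusted p = 0.00426). So were Atp10a (−0.80 ± 0.19) and Ndn (−1.89 ± 0.16; edgeR adjusted p = 0.00681 and 2.45e-05), while Mkrn3 at −0.41 ± 1.17 was not called.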
